A study of Mus musculus with 9 samples.

Results

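The genes described here are those of the mouse class II histocompatibility pathway that carry peptides to the cell surface: H2-Aa, H2-Ab1, H2-Eb1, H2-DMa, H2-DMb1 and Cd74. They were chosen by name, as every non-control probe whose transcript accession maps to one of these symbols, and not by their values. That gave 6 probes for 6 genes, of 39429 probes and 19751 gene symbols on the array, with 1 probe and 1 spot per gene. In the RefSeq table Cd74 lies on chromosome 18 and the other 5 genes lie on chromosome 17.

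Class II molecules display peptides to CD4 T cells and are made mainly by dendritic cells, macrophages and B cells. H2-Aa and H2-Ab1 encode the alpha and beta chain of the I-A molecule, and H2-Eb1 encodes the beta chain of I-E. C57BL/6 mice lack a working I-E alpha chain, so that I-A is their class II molecule at the cell surface. Cd74 encodes the invariant chain, which fills the peptide groove until proteases in the endosome trim it to a fragment called CLIP. H2-DMa and H2-DMb1 encode the chains of H2-DM, the chaperone that exchanges CLIP for a peptide. In the healthy retina, cells that carry class II are sparse and lie mainly at the optic disc and the outer margin, while the iris and the ciliary body hold many.

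The retinas came from adult male C57BL/6 mice whose right eyes were injected into the vitreous with AAP, HAN or phosphate-buffered saline (PBS), and they were taken at day 7. The title of the series describes AAP and HAN as peptides with high affinity for vascular endothelial growth factor, and the labels give 1 µM, worded for PBS as well; PBS was the negative control. Each group had 12 mice, and 4 retinas were pooled for an array, so that AAP, HAN and PBS had 3 pools each and p-values measure the spread between pools. RNA labelled with the single dye Cy3 was read on 9 Agilent arrays, and a level here is log2 of the processed signal minus log2 of the array's 75th percentile. A level of 0 therefore equals that percentile, and a difference of 1 is a doubling.

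The 75th percentile of the processed signal was 1340 on AAP 3, the dimmest array, and 2349 on PBS 1, the brightest. Between 71.6% and 79.2% of the spots of an array were well above background. The rod markers Gnat1 and Nrl were well above background on all arrays. A set of 9 skeletal muscle markers averaged 5.75 and 4.48 log2 units above the PBS mean in AAP 1 and AAP 3, and -0.26 in AAP 2. The lens markers were 2.14 log2 units below the PBS mean in PBS 2 and 2.25 above it in AAP 2. The arrays lay on 3 slides. Slide 1 held the 3 PBS arrays and AAP 1, slide 2 held AAP 2, AAP 3, HAN 1 and HAN 2, and slide 3 held HAN 3.

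Transcription of class II genes depends on the coactivator CIITA, which binds no DNA itself and is recruited by factors that sit on an X box and a Y box shortly before the gene start. RFX binds the X box and NF-Y binds the Y box, whose core is read as TGATTGG on the gene strand. The RefSeq promoter table (build GRCm38.p6) held windows for 4 of the 6 genes. The letters CTNGNAACT for the X box and TGATTGG for the Y box were chosen after the sequences had been seen, and both strands were searched. Stretches of 120 bases are shown because these genes, described below, varied together between pools; each is written along its gene's strand and ends at the base before the annotated start. Capitals mark the X box letters, then the Y box letters.
H2-Aa, chr17:34287824-34287943, minus strand: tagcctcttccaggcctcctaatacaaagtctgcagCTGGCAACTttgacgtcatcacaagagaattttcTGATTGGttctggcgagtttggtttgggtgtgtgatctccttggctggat
H2-Eb1, chr17:34305747-34305866, plus strand: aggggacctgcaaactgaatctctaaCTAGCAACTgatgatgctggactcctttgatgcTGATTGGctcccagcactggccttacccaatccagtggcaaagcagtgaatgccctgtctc
H2-DMb1, chr17:34153071-34153190, plus strand: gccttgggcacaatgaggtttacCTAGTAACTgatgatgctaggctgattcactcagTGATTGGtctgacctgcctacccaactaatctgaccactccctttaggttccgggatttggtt
Counting back from -1, the base before the start, the X box letters began at -84 in H2-Aa, at -94 in H2-Eb1 and at -97 in H2-DMb1, with 25, 24 and 25 bases between X and Y letters in these genes in that order. Over 32851 promoters, 5.15% held the Y box letters and 1.57% the X box letters in a window of this length. An X box before a Y box on the gene strand was found in 6 of them (0.0183%), of which 3 were H2-Aa, H2-Eb1 and H2-DMb1. The letters were chosen with these 3 sequences in view, so that their matches were fixed in advance and are no test.

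The remaining class II promoters differed in these letters. H2-DMa has 2 annotated starts, and neither window of 250 bases held the X or the Y letters. The windows of H2-Oa, H2-Ob, H2-Eb2 and H2-DMb2, class II genes of the same stretch of chromosome 17, held the Y box letters alone, beginning at -45, -59, -102 and -92 in that order. In windows of 250 bases the Y box letters occurred in 7.23% of all promoters and the X box letters in 3.47%. These matches describe letters and not bound sites, and a window without them says nothing about the factors.

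**Figure D1:**
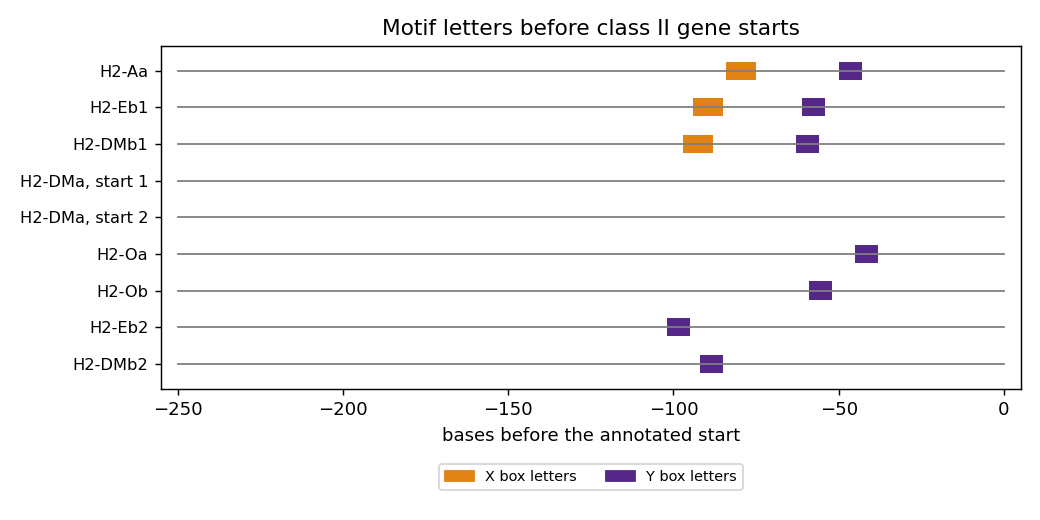
Positions of the X box letters (orange) and Y box letters (purple) in the 250 bases before each annotated start of the class II genes with a window in the RefSeq table; the horizontal axis gives bases before the start. X letters followed by Y letters are seen in H2-Aa, H2-Eb1 and H2-DMb1, where the X letters begin between -97 and -84.

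The question put to the arrays was whether AAP or HAN alters retinal gene expression relative to PBS. For class II the largest spread lay between pools of the same group, and none of the 6 genes differed between groups at an adjusted p under 0.05. Lower RNA in a pooled retina can come from fewer cells of a type or from less RNA per cell, and these cannot be told apart here.

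H2-Ab1, the I-A beta chain, had levels of -0.06, -1.02 and -1.42 in AAP pools 1, 2 and 3 and of -0.34, -0.76 and -1.22 in HAN pools 1, 2 and 3, against 0.42, -1.21 and -0.19 in PBS pools 1, 2 and 3. PBS 1 was the highest of the 9 pools and AAP 3 the lowest, and each group overlapped each other group. The PBS pools alone spanned 3.10-fold. H2-Ab1 averaged -0.83 ± 0.70 in AAP, -0.77 ± 0.44 in HAN and -0.33 ± 0.83 in PBS (SD, n = 3 each).

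H2-Aa, the I-A alpha chain, had levels of -3.34, -5.04 and -7.28 in AAP pools and of -4.25, -4.75 and -5.35 in HAN pools, against -3.50, -5.69 and -3.72 in PBS pools. Its order of pools was close to that of H2-Ab1, with AAP 1 highest, PBS 1 next and AAP 3 lowest. In AAP 3 its signal of 8.64 was not well above background, where the dimmest probe that was had 19.5, so that 8 of 9 arrays measured it and its level in AAP 3 is only a bound. With AAP 3 set at that dimmest signal the AAP pools spanned at least 6.79-fold, and the PBS pools spanned 4.56-fold.

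H2-Eb1, the I-E beta chain, had levels of -0.36, -1.81 and -2.66 in AAP pools and of -1.002, -1.41 and -1.85 in HAN pools, against -0.08, -2.08 and -0.80 in PBS pools. PBS 1 and AAP 1 were again high, and AAP 3 and PBS 2 low. The range within a group was 4.93-fold in AAP, 1.80-fold in HAN and 4.01-fold in PBS, and the groups overlapped. H2-Ea, the alpha chain partner, is listed as a transcribed pseudogene in the RefSeq table and is not analysed here.

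Cd74, the invariant chain, had levels of -1.31, -1.84 and -2.45 in AAP pools and of -1.60, -1.90 and -1.87 in HAN pools, against -0.40, -1.997 and -1.55 in PBS pools. PBS 1 stood highest and AAP 3 lowest, as for H2-Ab1 and H2-Eb1. The HAN pools lay within 1.23-fold of each other, while the AAP pools spanned 2.21-fold and the PBS pools 3.03-fold.

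H2-DMb1, the beta chain of the peptide exchanger, had levels of -2.68, -2.97 and -4.29 in AAP pools and of -2.61, -2.58 and -2.90 in HAN pools, against -2.11, -3.41 and -2.69 in PBS pools. It shared the high PBS 1 and the low AAP 3 with the other chains. H2-DMb2 is a close copy of H2-DMb1 whose own probe was not well above background on any array, and whether the H2-DMb1 probe also reads it was not tested.

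H2-DMa, the alpha chain of the exchanger, had levels of -3.56, -3.73 and -3.60 in AAP pools and of -2.85, -3.79 and -3.41 in HAN pools, against -3.42, -3.73 and -3.54 in PBS pools. It did not share the order of the other genes: HAN 1 was highest, HAN 2 lowest and AAP 3 in the middle. Its SD was 0.09 in AAP, 0.48 in HAN and 0.16 in PBS (n = 3 each).

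**Figure D2:**
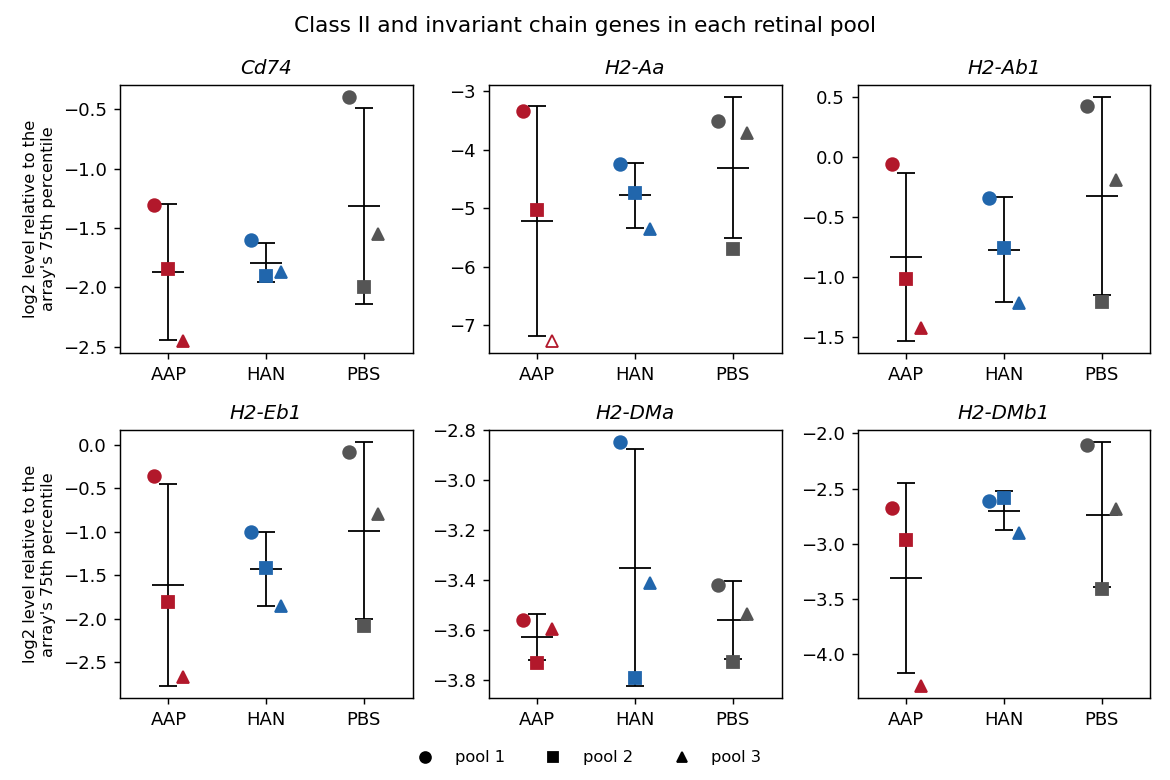
Log2 level relative to the array's 75th percentile for each of the 6 genes in every pool of AAP (red), HAN (blue) and PBS (grey); symbols give the pool number, bars the mean and SD of 3 pools, and the open symbol a value not well above background. In all genes but H2-DMa the PBS 1 pool is the highest or second highest and the AAP 3 pool is the lowest.

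In AAP against PBS, 0 of 6 class II genes passed the limma threshold, where 1 of 23895 genes did (0.00418%). No class II gene had groups that did not overlap, against 12.0% of all genes, and none had an unadjusted p under 0.05, against 6.78%. All 6 differences were negative, where 49.1% of all genes were lower (59.1% with the array median subtracted). All 6 stayed negative with the slide as a random block, but none was negative with it as a fixed block. Only slide 1 held both AAP and PBS, so the fixed-block values are those of AAP 1 against the 3 PBS pools. Without a slide block the median of the 6 differences was -0.56 on the log2 scale against 0.00 over all genes. Cd74 differed by -0.55 (95% interval -1.53 to 0.42, limma adjusted p = 0.828). H2-Ab1 differed by -0.51 (-1.63 to 0.61, adjusted p = 0.858). H2-Aa was at -0.91 (-3.19 to 1.36, adjusted p = 0.869) with its AAP 3 value, which is only a bound, at -0.27 after normexp background correction and at 0.12 without AAP 3. Of the class II genes H2-DMa had the narrowest interval, at -0.07 (-0.57 to 0.43, adjusted p = 0.962). H2-Eb1 differed by -0.62 (-2.15 to 0.91, adjusted p = 0.867) and H2-DMb1 by -0.58 (-1.62 to 0.47, adjusted p = 0.834). Each of the 6 had 2 AAP pools below the PBS mean and 1 at or above it.

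In HAN against PBS, 0 of 6 genes passed the threshold, where 1 of 23895 did (0.00418%). None had groups that did not overlap, against 20.9% of all genes, and none had an unadjusted p under 0.05, against 9.65%. The 3 chains of I-A and I-E and Cd74 had negative differences and both H2-DM chains positive ones, although that of H2-DMb1 turned negative under 3 other scalings; 48.6% of all genes were lower. With the slide as a fixed block the 4 negative differences turned positive (0.40 for Cd74, 0.94 for H2-Ab1, 1.65 for H2-Eb1, 2.63 for H2-Aa), and as a random block they stayed negative. HAN and PBS shared no slide, so the fixed-block values reach PBS only through AAP, and HAN 3, alone on its slide, adds nothing to them. That of H2-Aa rests in part on AAP 3, where its level is only a bound. Without a slide block the median over the 6 genes was -0.44, and 0.00 without PBS 1. Cd74, H2-Aa, H2-Ab1 and H2-Eb1 lay between -0.48 and -0.44 on the log2 scale, and their 3 HAN pools were below the PBS mean except for 1 pool of H2-Aa. The intervals were -1.45 to 0.50 for Cd74 (limma adjusted p = 0.759), -2.75 to 1.79 for H2-Aa (adjusted p = 0.908) and -1.57 to 0.67 for H2-Ab1 (adjusted p = 0.806). H2-Eb1 had an interval of -1.97 to 1.095 (adjusted p = 0.869). H2-DMa differed by 0.21 (-0.29 to 0.71, adjusted p = 0.796) and H2-DMb1 by 0.04 (-1.01 to 1.09, adjusted p = 0.988).

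In AAP against HAN, 0 of 6 genes passed the threshold and 0 of 23895 genes did (0.0%), with 2040 genes at an unadjusted p under 0.05 (8.54%), none of them a class II gene. No class II gene had groups that did not overlap, against 14.3% of all genes. The 6 differences were negative, where 49.7% of all genes were lower, although several turned positive in other runs. The differences ran from -0.61 for H2-DMb1 (-1.66 to 0.44, limma adjusted p = 0.653) to -0.06 for H2-Ab1 (-1.18 to 1.06, adjusted p = 0.967). Cd74 was at -0.08 (-1.05 to 0.90, adjusted p = 0.952), H2-Eb1 at -0.19 (-1.72 to 1.34, adjusted p = 0.924), H2-DMa at -0.28 (-0.78 to 0.22, adjusted p = 0.661) and H2-Aa at -0.44 (-2.71 to 1.84, adjusted p = 0.875). The AAP 3 value of H2-Aa is only a bound. H2-Aa and H2-Ab1 turned positive after normexp background correction. Without AAP 3 the difference was 0.59 for H2-Aa, 0.22 for Cd74, 0.23 for H2-Ab1 and 0.34 for H2-Eb1, while both H2-DM chains stayed negative. Without HAN 1 it was positive for Cd74, H2-Ab1 and H2-Eb1, and negative for H2-Aa and both H2-DM chains. These comparisons share pools, so that their signs are not independent of each other.

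**Figure D3:**
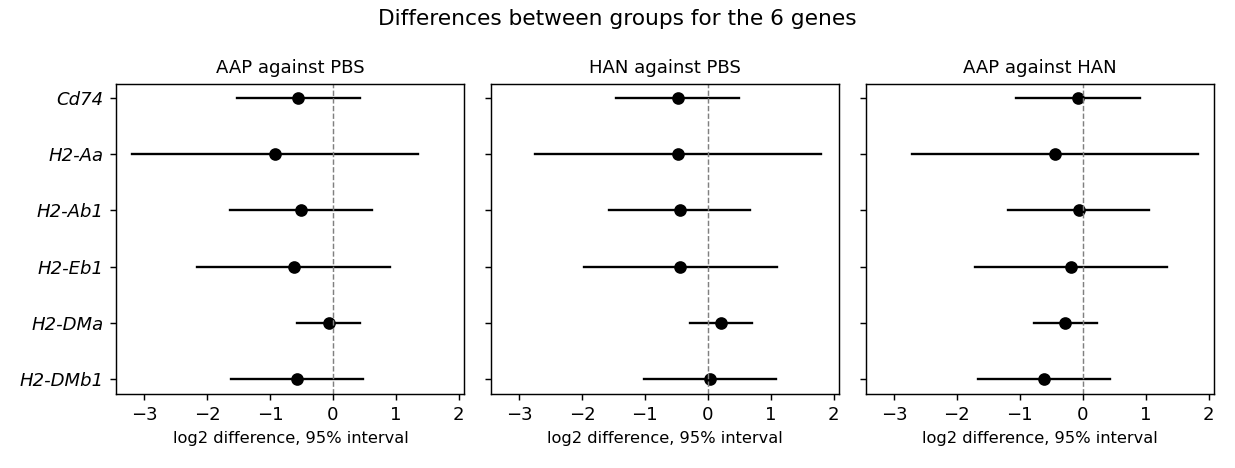
Log2 difference between group means with its 95% interval for the 6 genes, in 3 panels that set AAP against PBS, then HAN against PBS, then AAP against HAN; the dashed line marks 0. Every interval contains 0, and H2-Aa has the widest interval and H2-DMa the narrowest in each panel.

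The group means were ordered AAP, HAN, PBS from low to high for Cd74, H2-Aa, H2-Ab1 and H2-Eb1, and AAP, PBS, HAN for H2-DMa and H2-DMb1. No neighbours in these orders differed beyond their spread. All 18 differences between group means, over 6 genes and 3 comparisons, were smaller than the pooled SD within groups of the same gene. That SD was 0.92 log2 units for H2-Eb1, larger than in 97.8% of the genes tested. For H2-Aa it was 1.37, a value that rests in part on AAP 3, where the probe was not well above background. H2-Ab1 had 0.67, H2-DMb1 0.63 and Cd74 0.59, each larger than in at least 94.2% of genes. H2-DMa had 0.29, larger than in 81.9%, and the median over all genes was 0.13. The half-width of the 95% interval was 2.89-fold for H2-Eb1 and 1.41-fold for H2-DMa. With this spread and number of arrays, smaller differences between groups do not reach even an unadjusted p of 0.05. The adjusted threshold is stricter, so that larger differences could also be missed.

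The slides divided the groups unevenly, and the class II differences were not the same within slides. On slide 1, AAP 1 set against the 3 PBS pools gave 0.27 for H2-Ab1, 0.97 for H2-Aa, 0.63 for H2-Eb1, 0.01 for Cd74, 0.06 for H2-DMb1 and 0.00 for H2-DMa on the log2 scale. None of these was negative, while all 6 pooled differences were. On slide 2, AAP 2 and AAP 3 against HAN 1 and HAN 2 gave -0.67 for H2-Ab1, -1.66 for H2-Aa, -1.03 for H2-Eb1, -0.40 for Cd74, -1.03 for H2-DMb1 and -0.34 for H2-DMa. The size for H2-Aa rests in part on AAP 3, where its level is only a bound. HAN and PBS shared no slide. The 2 AAP arrays on slide 2 had lower class II levels than the AAP array on slide 1, and the part of the slide in the result was not tested with so few arrays.

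Apart from H2-DMa, the class II genes varied together between pools. Over the 9 arrays the 10 pairs among Cd74, H2-Aa, H2-Ab1, H2-Eb1 and H2-DMb1 had Pearson r of 0.80 to 0.98 and Spearman rho of 0.68 to 0.98. The 5 pairs with H2-DMa had r of 0.27 to 0.35 and rho of 0.27 to 0.48. With group means subtracted the 10 pairs had r of 0.82 to 0.98, so that the shared pattern lies within groups. Without AAP 3 and PBS 1, the pools farthest from the centre, the 10 pairs had r of 0.60 to 0.99 over 7 arrays. These correlations are descriptions: the points share arrays, scaling and the RNA of a pool. AAP 3 was also the dimmest array and PBS 1 the brightest, while HAN 3, with a 75th percentile of 2255, was the second brightest and ranked 6 to 8 of 9 in these 5 genes. The part of array brightness in the pattern was not tested.

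Averaged over the 6 genes and set against the PBS mean, the class II level was 0.32, -0.53 and -1.41 in AAP pools and 0.10, -0.33 and -0.56 in HAN pools, against 0.69, -0.82 and 0.12 in PBS pools. The PBS pools therefore covered most of the range of the treated pools, and AAP 3 alone lay below all PBS pools. H2-Aa, H2-Eb1 and H2-DMb1, whose promoters are shown above, had r of 0.97, 0.99 and 0.92 to this average, which contains them. H2-Ab1 had r of 0.96. H2-DMa had 0.38.

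The genes that lie between and beside these on chromosome 17 did not all share the pattern. The order in the RefSeq table is H2-Oa, Brd2, H2-DMa, H2-DMb2, H2-DMb1, Psmb9, Tap1, Psmb8, Tap2, H2-Ob, Gm20506, H2-Ab1, H2-Aa, H2-Eb1, H2-Eb2 and H2-Ea. Next to H2-Eb1, H2-Eb2 had r of -0.10 to the class II average. H2-Eb2 passed the filter only through PBS and was not well above background on every array, so that its r rests in part on bounds. H2-Ob, before H2-Ab1, had r of -0.20. Brd2, a chromatin reader gene between H2-Oa and H2-DMa, had r of -0.67. The immunoproteasome subunits Psmb9 and Psmb8 had r of 0.66 and 0.57, and the peptide transporter chains Tap1 and Tap2, which serve class I, 0.05 and 0.38.

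Among 15802 genes with a curated messenger RNA, the 5 whose levels were most like the class II average over the 9 arrays were C1ra, Tmem176a, Nectin2, Ltbr and Plcb3, at r of 0.97, 0.97, 0.96, 0.96 and 0.95. C1ra encodes a protease of the classical complement pathway. Its levels were -1.82, -2.65 and -3.77 in AAP pools and -1.997, -2.45 and -2.40 in HAN pools, against -1.22, -2.61 and -2.07 in PBS pools. Tmem176a encodes a membrane protein of antigen-presenting cells, Nectin2 an adhesion molecule, Ltbr the lymphotoxin beta receptor and Plcb3 a phospholipase C. Without AAP 3 and PBS 1 their r was 0.95, 0.94, 0.91, 0.95 and 0.85 in the same order. Ranked by Spearman rho the first 5 were Mal2, Blvrb, Nectin2, Ctsh and Niban2, and with group means subtracted Tspan12, Nectin2, Slc29a3, Avil and Arhgef40, so that Nectin2 alone was in all 3 sets.

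The other class II chains gave few signals. H2-Oa and H2-Ob encode H2-O, an inhibitor of H2-DM, and H2-Eb2 encodes a further beta chain. Of 3 measured, 0 passed the threshold in any comparison. H2-Oa had levels of -5.79, -6.25 and -6.96 in AAP pools and -6.03, -7.03 and -5.67 in HAN pools, against -5.21, -5.88 and -5.35 in PBS pools, and was well above background on 1 AAP, 2 HAN and 3 PBS arrays. Its remaining values are bounds, so that no size is given for its differences. H2-Eb2 had -6.36, -6.10 and -5.53 in AAP and -6.26, -6.48 and -6.17 in HAN, against -5.65, -5.96 and -5.39 in PBS. It too was well above background on 1 AAP, 2 HAN and 3 PBS arrays (limma adjusted p = 0.463 in HAN against PBS), and passed the filter only through PBS. H2-Ob differed by at most 0.13 in size in any comparison.

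Ciita, the gene of the class II coactivator, did not follow the class II genes. It had levels of -5.05, -4.85 and -4.64 in AAP pools and -4.88, -4.82 and -5.57 in HAN pools, against -4.77, -4.66 and -4.84 in PBS pools. AAP 3, lowest for 5 class II genes, was the highest pool for Ciita. The differences were -0.09 in AAP against PBS and -0.33 in HAN against PBS (limma adjusted p = 0.944 and 0.615). Of 15 measured genes of class II transcription and interferon gamma signalling, 10 were lower and 5 higher in AAP against PBS, 11 and 4 in HAN against PBS, and 0 passed. The smallest p values belonged to Nfyb, a subunit of NF-Y, at -0.16 (adjusted p = 0.727), and to Socs1, an inhibitor of cytokine signalling, at -0.25 (adjusted p = 0.734), both in AAP against PBS. The mean of this list had r of 0.00 to the class II average. Ifng was not well above background on any array.

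Ctss, cathepsin S, which makes the last cuts in the invariant chain in many antigen-presenting cells, had levels of 1.68, 1.28 and 0.78 in AAP pools and 1.82, 0.79 and 1.77 in HAN pools, against 2.21, 2.07 and 2.07 in PBS pools. All 6 peptide-treated pools lay below the 3 PBS pools. Groups did not overlap, in either direction, in 12.0% of all genes in AAP against PBS and in 20.9% in HAN against PBS. Ctss differed by -0.87 in AAP (-1.58 to -0.15, limma adjusted p = 0.692) and -0.66 in HAN (adjusted p = 0.547) against PBS, and neither passed. Lgmn, the asparaginyl endopeptidase, also had groups that did not overlap, at -0.16 in AAP and -0.15 in HAN against PBS. Ifi30, a thiol reductase that unfolds antigens, was at -0.28 and -0.05. Ctsh, cathepsin H, had 2.22, 1.94 and 1.02 in AAP and 2.08, 1.90 and 1.82 in HAN, against 2.43, 1.80 and 2.41 in PBS, close to the class II order (rho 0.97), as seen after its values were known.

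Of the 10 measured genes of peptide loading and turnover, 8 were lower and 2 higher in AAP against PBS, 6 and 4 in HAN against PBS, and 0 passed. Their medians were -0.24 in AAP and -0.08 in HAN, against 0.00 over all genes in each. The mean of the list had r of 0.81 to the class II average (rho 0.57), and 0.22 without AAP 3 and PBS 1. Marchf1, a ubiquitin ligase that takes class II off the surface, was at 0.55 in HAN against PBS (0.21 to 0.89, limma adjusted p = 0.390), and Ctsd, cathepsin D, at -0.34 (adjusted p = 0.451). Of the partners of surface CD74, Mif, its ligand, was at 0.06 in AAP against PBS (adjusted p = 0.880) and Cd44, its coreceptor, at -0.50 in AAP against HAN (adjusted p = 0.586). Cxcr2 and Cxcr4 did not pass the filter on dim probes. Of 6 T cell costimulation genes 0 passed; Cd40 was at -0.64 in AAP against PBS (adjusted p = 0.673) and Cd80 at 0.21 in AAP against HAN (adjusted p = 0.574).

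Class I presentation genes were lower in 11 of 12 in AAP against PBS and in 12 of 12 in HAN against PBS, with medians of -0.27 and -0.44, and 0 passed. H2-D1, a class I heavy chain, was at -0.61 in HAN against PBS (limma adjusted p = 0.444), and Tap1 at 0.65 in AAP against HAN (adjusted p = 0.574). The class I list averaged -0.05, 0.06 and -0.02 against the PBS mean in the PBS pools, so that PBS 1 and PBS 2, far apart in class II, were close in class I. Over the 9 arrays its r to the class II average was 0.53 (rho 0.43), and 0.13 without AAP 3 and PBS 1.

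**Figure D4:**
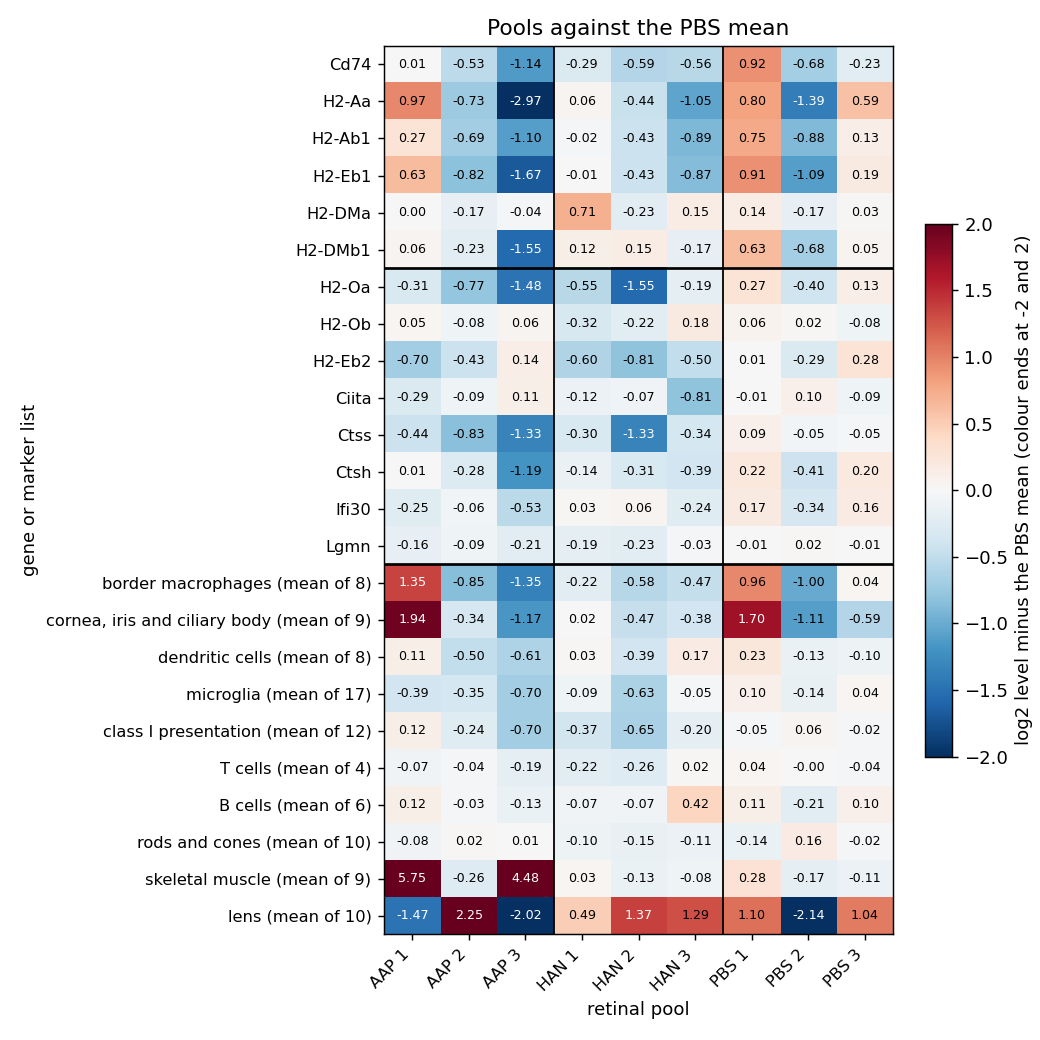
Log2 level minus the PBS mean in every pool (columns, AAP, HAN, PBS) for the 6 genes (top), genes of the pathway (middle) and the mean of each marker list (bottom); colour ends at -2 and 2, and numbers give the values. Cd74, H2-Aa, H2-Ab1 and H2-Eb1 are high in AAP 1 or PBS 1 and low in AAP 3 and PBS 2, as are the border macrophage and the cornea, iris and ciliary body lists.

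Markers of other cells moved with the class II genes to different degrees. Border macrophages are the macrophages of vessels, meninges and connective tissue around the retina, and 8 of their 9 markers were measured (Cd163 did not pass). Their mean against the PBS mean was 1.35, -0.85 and -1.35 in AAP pools and -0.22, -0.58 and -0.47 in HAN pools, against 0.96, -1.003 and 0.04 in PBS pools. AAP 1 and PBS 1 were high and AAP 3 and PBS 2 low, as for class II, and r to the class II average was 0.90 (rho 0.93; r 0.85 without AAP 3 and PBS 1). Their summed level, in multiples of the array's 75th percentile, ran from 0.677 to 34.9 in AAP and from 1.15 to 1.21 in HAN, against 0.900 to 3.49 in PBS.

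Within that list, Mrc1, the mannose receptor, and Pf4, a chemokine, are given as examples chosen after their values were seen. Mrc1 had -3.54, -5.52 and -6.09 in AAP and -4.46, -4.89 and -4.85 in HAN, against -3.71, -6.03 and -4.17 in PBS. Pf4 had -1.46, -2.55 and -3.50 in AAP and -2.58, -2.39 and -2.65 in HAN, against -1.85, -3.55 and -1.49 in PBS. Both had AAP 3 and PBS 2 as their lowest pools, with Mrc1 not well above background on 1 AAP array. Not all markers did: Lyve1, a hyaluronan receptor, had -1.68, -1.84 and -1.87 in AAP and -1.97, -1.91 and -1.75 in HAN, against -1.91, -1.74 and -2.005 in PBS. Cbr2, a carbonyl reductase, was at 5.07 in AAP 1 and no higher than 0.77 in any other pool, and it makes up most of the highest sum. Ms4a7, a macrophage membrane protein, was at -1.47 in AAP against PBS (-2.39 to -0.54, limma adjusted p = 0.655), with all AAP pools below all PBS pools. In that comparison groups did not overlap, in either direction, in 12.0% of all genes. Ccl8, a chemokine, had an adjusted p of 0.837 and was well above background on 1 AAP array. In this list 5 of 8 genes were lower in AAP against PBS and 6 of 8 in HAN against PBS, and 0 passed.

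Markers of cornea, iris and ciliary body, tissues next to the retina, were measured for 9 of 10 genes (Pax9 did not pass). Their mean was 1.94, -0.34 and -1.17 in AAP pools and 0.02, -0.47 and -0.38 in HAN pools, against 1.70, -1.11 and -0.59 in PBS pools. Here too AAP 1 and PBS 1 were highest, with r of 0.82 (rho 0.77; r 0.71 without AAP 3 and PBS 1). The summed level ran from 7.06 to 88.7 in AAP and from 13.5 to 26.4 in HAN, against 7.76 to 48.0 in PBS. The smallest p values were those of Myoc, myocilin, at 0.93 in AAP against HAN (limma adjusted p = 0.574), and of Aldh1a1, an aldehyde dehydrogenase, at -1.22 (adjusted p = 0.574). In AAP against PBS 4 of 9 were lower and in HAN against PBS 6 of 9, and 0 passed. The part of these cells and tissues in the class II levels was not tested.

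Microglia, the macrophages within the retina, were measured by 17 of 17 markers, whose mean was -0.39, -0.35 and -0.70 in AAP pools and -0.09, -0.63 and -0.05 in HAN pools, against 0.10, -0.14 and 0.04 in PBS pools. Between PBS 1 and PBS 2 the microglial mean differed by far less than the class II average did. Single markers of the list were not all level: Olfml3, named after its values were seen, had 1.35, -1.68 and -1.05 in PBS. The r to the class II average was 0.59 (rho 0.50), and 0.03 without AAP 3 and PBS 1. The summed level ran from 172.9 to 196.2 in AAP and from 174.7 to 193.2 in HAN, against 165.7 to 171.3 in PBS, and no marker of the list was dropped as dim. In AAP against PBS 14 of 17 were lower, in HAN against PBS 13 of 17, with medians of -0.43 and -0.30, and 0 passed. The summed level, to which the brightest markers add most, therefore went the other way from most single markers. Itgam, the integrin CD11b, was at 0.42 in HAN against PBS (limma adjusted p = 0.372) and Fcrls, an Fc receptor-like gene, at -0.30 (adjusted p = 0.428).

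**Figure D5:**
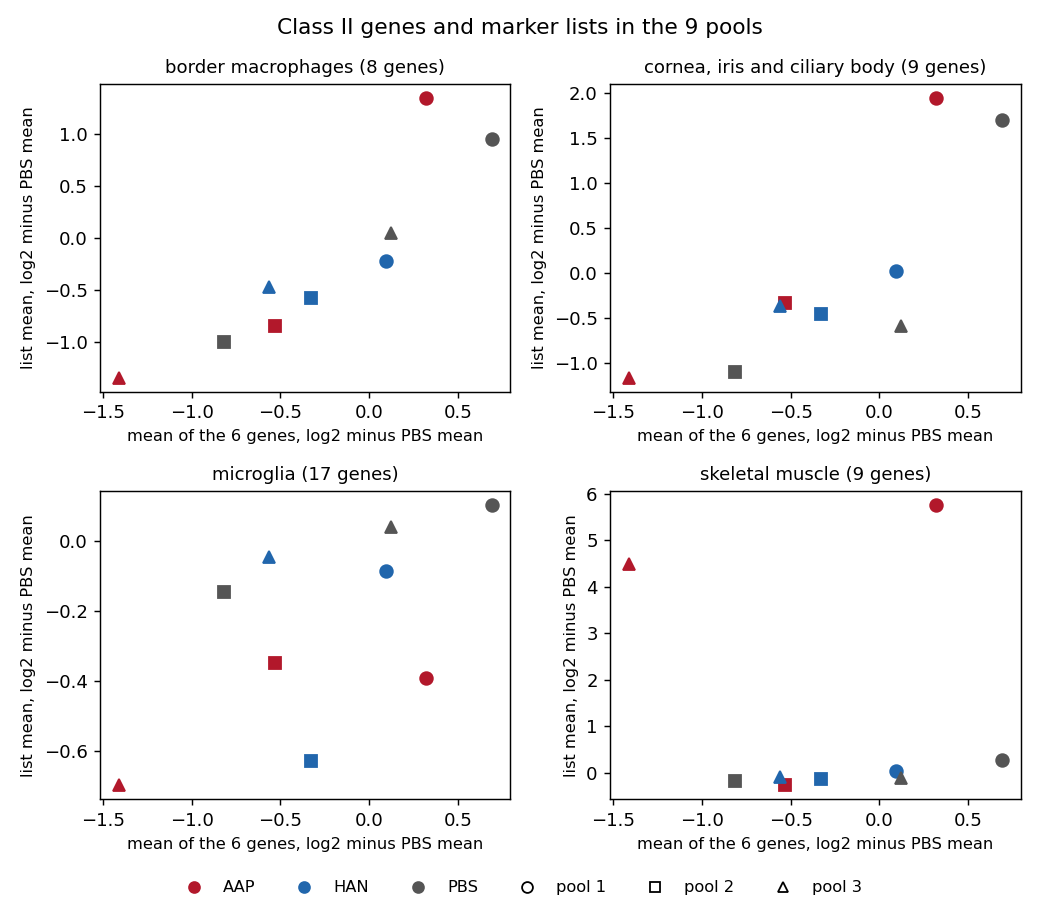
Mean of a marker list (vertical axis) against the mean of the 6 class II genes (horizontal axis), both as log2 minus the PBS mean, in the 9 pools; colours give the group (AAP red, HAN blue, PBS grey) and symbols the pool number. The border macrophage list follows the class II mean across all groups (r 0.90), while the microglial list is nearly level over the PBS pools and the muscle list is high in AAP 1 and AAP 3 alone.

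Dendritic cell markers, 8 of 11 measured with Cd209a, Xcr1 and Clec9a among those that did not pass, had r of 0.72 (rho 0.65), and 0.36 without AAP 3 and PBS 1. Erythrocyte markers had r of 0.69 (rho 0.72, 5 measured), and 0.79 without these pools, and monocyte and neutrophil markers 0.60 (5 of 8), and 0.56 without them. B cell markers had 0.36 (6 of 8, with Ms4a1 and Pax5 not passing), and T cell markers 0.24 (4 of 8, without Cd3d, Cd3g, Cd8a and Cd2). Without AAP 3 and PBS 1 these were 0.14 and -0.36. In AAP against PBS and HAN against PBS in that order, lower genes numbered 5 and 4 of 8 dendritic, 5 and 4 of 5 erythrocyte, 4 and 5 of 5 monocyte and neutrophil, 3 and 2 of 6 B cell and 4 and 4 of 4 T cell markers. Pigment epithelium had r of 0.50, lens 0.38, skeletal muscle -0.11, inner retinal neurons -0.19, Mueller glia -0.40 and rods and cones -0.56. In the same order these were 0.36, -0.06, 0.60, 0.14, -0.81 and -0.48 without AAP 3 and PBS 1. Lower genes numbered 2 and 7 of 7 for pigment epithelium, 9 and 0 of 10 for lens, 0 and 6 of 9 for muscle, 3 and 2 of 10 for inner neurons, 4 and 3 of 6 for Mueller glia and 5 and 9 of 10 for rods and cones. No gene of these lists passed the threshold in any comparison, muscle and lens included.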

How the data were processed

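The authors deposited scanner files in which the processed signal is an intensity, background-subtracted and detrended but not normalised between arrays, per the file headers (Feature Extraction 11.0.1.1, protocol GE1_1100_Jul11, mm9 annotation). Their deposited value table equalled the mean processed intensity of a probe in at least 99.7% of probes (relative tolerance 0.0001). Its column medians were 265.5, 237.6 and 164.7 in AAP, 251.1, 242.5 and 296.5 in HAN, and 298.3, 256.4 and 231.9 in PBS.

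Of 44397 spots per array, 43020 were not controls; 103 to 160 outlier spots were left out and 0 were saturated. Log2 intensity minus the array's 75th percentile was averaged per probe. Probes were named through accessions in the RefSeq table (GRCm38.p6), which gave 26055 probes a symbol and left 13374 without. A probe was kept when well above background on all arrays of at least 1 group, and a gene was its kept probe with the highest mean. One limma 3.58.1 model (R 4.3.3; lmFit, eBayes) held a mean per group over 9 arrays, with 6 residual and 1.85 prior degrees of freedom, two-sided tests and Benjamini-Hochberg adjustment over 23895 genes at 0.05. The script was tested on simulated data.

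The genes and lists were chosen with earlier results of these data known. Named genes were the 6 class II genes, the other class II chains, Ciita, Ctss, Ifi30 and Lgmn, the 5 most correlated genes, and from each list the 2 with the smallest p; cell lists other than microglia, border macrophages and the cornea, iris and ciliary body are given as counts and correlations. The neighbours on chromosome 17 (Brd2, Psmb9, Psmb8, Tap2) were named by position, and Mrc1, Pf4, Cbr2, Lyve1, Olfml3, Ctsh, Gnat1 and Nrl after their values were seen. Nothing shows that pools with the same number belong together: same-numbered arrays had correlations of -0.28 to 0.40 in their deviations from group means.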

Additional observations from a re-analysis of the deposited data

How the results depend on the processing

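In every alternative run, 0 of 6 class II genes passed the threshold in each comparison, and the adjusted p of single genes lay between 0.485 and 1.00. Directions were less stable: of 131 values per comparison, 8 changed sign in AAP against PBS, 12 in HAN against PBS and 10 in AAP against HAN. Some of these runs could not move a difference by their design. They are the changed probe filters, every probe on its own, the replicate block and fits that left out only arrays of the group not compared. The share of changed signs is therefore smaller than it is among runs that could move them. With the slide as a fixed block the median difference was 0.17 in AAP against PBS and 1.02 in HAN against PBS, the second reaching PBS only through AAP. With the slide as a random block (correlation within slides 0.11) these medians were -0.48 and -0.20, and no gene changed sign. In AAP against PBS the fixed block gave 0.0078 for Cd74, 0.97 for H2-Aa, 0.27 for H2-Ab1, 0.63 for H2-Eb1, 0.0028 for H2-DMa and 0.060 for H2-DMb1. These equal the values of AAP 1 against the PBS pools on slide 1. In HAN against PBS the fixed block gave 0.40 for Cd74, 2.63 for H2-Aa, 0.94 for H2-Ab1 and 1.65 for H2-Eb1. The H2-Aa value rests in part on AAP 3, where its level is only a bound. H2-DMb1 in HAN against PBS was -0.0056 after normexp background correction with quantile normalisation, -0.0073 after quantile normalisation alone and -0.0021 with the array median subtracted. In AAP against HAN normexp gave 0.078 for H2-Aa and 0.013 for H2-Ab1; it was run on median signals, since the files hold no mean signal. The cause was not tested.

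Leaving out each pool in turn moved the median difference between -0.93 (without PBS 2) and -0.09 (without AAP 3) in AAP against PBS, between -0.85 (without PBS 2) and 0.00 (without PBS 1) in HAN against PBS, and between -0.63 (without AAP 1) and 0.23 (without AAP 3) in AAP against HAN. In AAP against PBS H2-Aa ran from -1.85 to 0.12 and H2-DMa from -0.15 to 0.0036. In HAN against PBS H2-Eb1 ran from -0.98 to 0.018, H2-DMa from -0.041 to 0.43 and H2-DMb1 from -0.30 to 0.35. In AAP against HAN Cd74 ran from -0.36 to 0.22, H2-Aa from -1.38 to 0.59, H2-Ab1 from -0.45 to 0.23 and H2-Eb1 from -0.81 to 0.34. Leaving out AAP 3 or HAN 1 turned more signs than leaving out any other pool. With AAP 2 as the only AAP array, an alternative chosen after seeing the data because AAP 1 and AAP 3 held muscle RNA markers, the lone array being assumed to vary like the other groups, the median in AAP against PBS was -0.61.

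Over all genes, the count past the threshold in AAP against PBS was 46 with the slide as a fixed block and 12 without AAP 2, against 1, and 0 with normexp, quantile or median scaling, without the filter on dim probes, with AAP and PBS arrays alone, without any 1 PBS or HAN pool, or without AAP 3. In HAN against PBS it was 2 with the slide block and without HAN 1, and 3 with array weights and without HAN 2, against 1. In AAP against HAN it was 13 without AAP 2 and 1 without HAN 2, against 0. The fit with the replicate number as a block gave 0 class II genes and 0 genes in all in each comparison. Each number held an array of every group, so that this block cannot move a difference. The medians therefore stayed at -0.56, -0.44 and -0.23. Same-numbered arrays did not all correlate best with their own number. Of the 5 genes most like class II, 1 was kept by Spearman's rho and 1 with group means subtracted. Groups of 3 pools are too small for a test of single outlying pools.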
